A study of Mus musculus with 9 samples.

Results

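The genes of the proteasome were followed across 3 culture conditions of mouse articular chondrocytes. Members were the genes whose symbol starts with Psma, Psmb, Psmc, Psmd or Psme followed directly by a digit, each read by the brightest of its probes over the 9 samples. The rule took 44 of the 19084 genes with a probe, and all 44 were above 0 in every sample and were tested. By their known roles 42 of them are subunits, assembly chaperones or activators of the proteasome. Psmc3ip and Psme3ip1 matched the rule but are none of these and were put in no role. Psma3, the remaining alpha ring subunit, had no probe, and 3 members (Psmb1, Psmd8 and Psmd10) had a further, dimmer probe. The members were named by the rule and not by their values.

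The proteasome is the protease complex that breaks down proteins tagged with ubiquitin. Its core particle is a barrel of alpha and beta rings with the cutting sites inside, carried by the beta subunits Psmb5, Psmb6 and Psmb7, and the regulatory particle on its end binds the tagged protein in the lid and base, removes the ubiquitin and unfolds the chain with a ring of ATPases. Cells exposed to interferon swap in the catalytic subunits Psmb8, Psmb9 and Psmb10 to form the immunoproteasome, and in most cells the subunit genes rise together when the transcription factor Nfe2l1 is released by a shortage of proteasome activity.

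The study asked how the stiffness of the extracellular matrix (ECM) acts on cartilage cells. Chondrocytes freed by collagenase from mouse articular cartilage were grown in monolayer, and RNA was taken after 24 h by the sample labels from 3 samples labelled normal, 3 on a soft ECM and 3 on a stiff ECM, each hybridised to single-colour mouse arrays. The soft and stiff ECM were polyacrylamide gels of 500 Pa and 100 kPa, coated with collagen by the study's methods, and the sources used here do not state what the normal samples grew on. A legend of the study that covers the array data gives a longer time after seeding than the labels do, and the time was not settled. The design calls the 3 samples of a group biological replicates but does not say whether they came from separate animals or cultures, so p-values measure only the spread between these samples, which may be technical.

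The deposited values are intensities on a linear scale, and log2 of them was tested in limma on the 24942 probes above 0 in all samples, with p-values adjusted by Benjamini-Hochberg over all of these probes and a threshold of 0.05. The median intensity of all probes was 124 to 179 in normal, 137 to 150 in soft and 166 to 175 in stiff samples. Olfactory receptor genes, used as a gauge of silence since they are genes of the nose, had median intensities of 27.9 to 48.5, 37.7 to 42.2 and 54.6 to 57.4 in the same order, so the dim end of the scale also differed between the groups. For this reason each member was set beside the 200 tested probes nearest to it in mean intensity, as a description with no test. These neighbours made up 3419 probes of like intensity. Levels are compared only within a probe, since probes bind with different strength.

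Of the 42 genes with a proteasome role, 36 were brighter in mean intensity than the 95th percentile of the 465 olfactory receptor probes (327), and 6 were not (Psma5, Psma8, Psmb11, Psmd9, Psmd11 and Psme2). The dim readings include subunits that every proteasome holds, such as Psma5 and Psmd11, so they describe the probe and not the presence of the gene. Each group enters 2 of the 3 comparisons, so the comparisons share samples and their values are given side by side.

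Against the normal samples, 5 of the 42 genes fell on the stiff ECM and 0 rose. The 5 were Psmb5, Psmb1, Psmb3, Psma4 and Psmc2, at log2 changes of -0.53 to -0.37. Over all tested probes 5.14% were called lower and 4.8% higher, and over the probes of like intensity 8.31% were called lower. At an unadjusted p under 0.05, 12 members were lower and 0 higher, where 12.9% of all tested probes and 19.8% of those of like intensity were lower and 17.1% of all were higher. In 10 members all 3 stiff samples lay below all 3 normal samples and in 1 above, where the shares of all tested probes were 14.6% and 19.3% and of those of like intensity 22.0% and 14.1%. The methods' t-test, run on the same log2 values, called 0 in either direction after adjustment. The median log2 change of the 42 was -0.14, beside 0.09 for all tested probes and -0.05 for those of like intensity. The count of 5 rests on single samples, being 0 without stiff ECM replicate 2, 1 without stiff ECM replicate 3, and 3 without normal replicate 1 or normal replicate 2. Without normal replicate 3 the count was 4, and Psmd9 was then the 1 member called higher.

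Between the gels, 0 of the 42 genes passed the threshold in limma in either direction, stiff minus soft. Over all tested probes 1.35% were called higher and 0.417% lower. At an unadjusted p under 0.05, 13 members were lower and 1 higher, where 4.12% of all tested probes were lower and 17.5% higher. Of the probes of like intensity 7.58% were lower and 16.3% higher at that cut-off. The methods' t-test called 0 members after adjustment. The median log2 difference of the 42 was -0.13, against 0.18 for all tested probes and 0.07 for those of like intensity. The value was below 0 in 30 of 42 members, beside 29.4% of all tested probes and 40.6% of those of like intensity. In 16 members all 3 stiff samples were below all 3 soft samples, and in 5 they were above, where the shares over all tested probes were 6.39% and 31.7% and over probes of like intensity 11.1% and 23.4%. Leaving out normal replicate 1, which enters only through the shared spread, gave 1 lower call (Psmb8, adjusted p = 0.038 in limma).

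Against the normal samples, 0 of the 42 genes passed the threshold on the soft ECM in limma, where 0.493% of all tested probes were called higher and 3.21% lower. At an unadjusted p under 0.05, 3 members were higher and 4 lower, where 4.6% of all tested probes were higher and 15.3% lower. Of the probes of like intensity 3.89% were higher and 19.1% lower at that cut-off. The methods' t-test called 0 members after adjustment. The median log2 change of the 42 was 0.00, beside -0.09 for all tested probes and -0.10 for those of like intensity. Of the 42, 23 lay above 0, where 38.3% of all tested probes and 32.1% of those of like intensity did. All 3 soft samples lay above all 3 normal samples in 4 members and below them in 7. The shares of all tested probes were 5.26% and 18.3%, and of those of like intensity 4.3% and 21.0%. Without normal replicate 3, 1 member was called higher (Psmb8, adjusted p = 0.039 in limma).

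**Figure D1:**
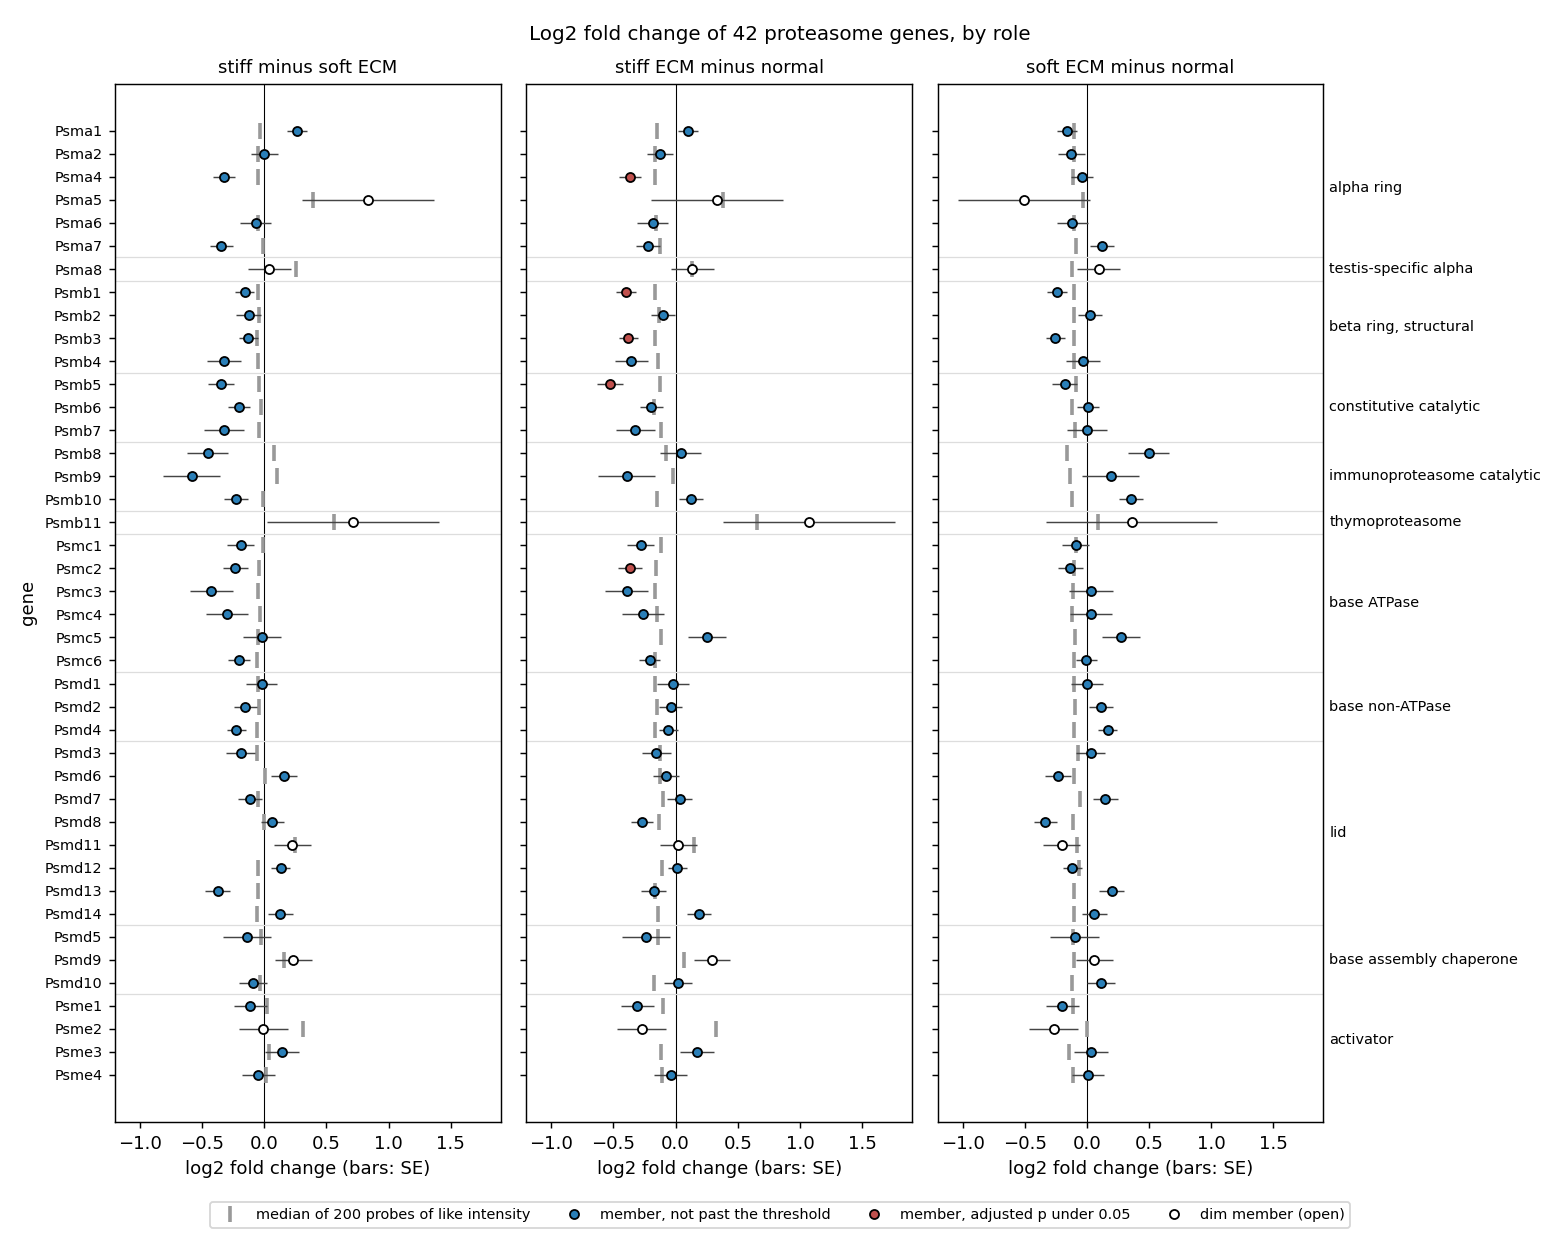
Log2 fold change of the 42 genes with a proteasome role, grouped by role, in the 3 comparisons. Points are fitted values with the SE as bars, grey ticks are the median of the 200 probes nearest in intensity, red points passed the adjusted threshold and open points are the 6 dim members. The 5 red points all lie below 0 in stiff ECM minus normal, and most stiff minus soft points lie left of their grey ticks.

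Psmb5, the chymotrypsin-like catalytic subunit and the main target of proteasome inhibitor drugs, showed the largest fall among the 5 called members. Its intensity was 11402, 10729 and 11576 in the normal, 11261, 8711 and 9949 in the soft and 8188, 7788 and 7400.5 in the stiff samples. The stiff samples were below all the others, while soft replicate 1 lay among the normal samples. The log2 change from normal to stiff was -0.53 (SE 0.10, adjusted p = 0.015 in limma), from a mean of 11235 ± 447 to 7792 ± 394 (SD, n = 3 each). Against its neighbours in intensity the difference was -0.40. The same gene differed by -0.35 between stiff and soft (SE 0.10, adjusted p = 0.098) and by -0.18 between soft and normal (adjusted p = 0.37), neither past the threshold. The fall from normal lost its call without stiff ECM replicate 2 (adjusted p = 0.059) and without stiff ECM replicate 3 (adjusted p = 0.055).

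Psmb6, the caspase-like catalytic subunit, read 32109, 32416 and 34690.5 in the normal, 37208, 32291 and 30488 in the soft and 29085, 29014 and 28554 in the stiff samples. The stiff samples were again below the other 6, by a smaller margin. The log2 difference was -0.19 from normal (SE 0.09, adjusted p = 0.18 in limma) and -0.20 from soft (SE 0.09, adjusted p = 0.23), and it was -0.02 and -0.17 against the neighbours in intensity.

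Psmb7, the trypsin-like catalytic subunit, read 8742, 9468 and 11384 in the normal, 9856, 9577 and 9993 in the soft and 9192, 8827 and 5919.9 in the stiff samples. The stiff replicate 3 value was far below the other 8, and the stiff and normal groups overlapped. The log2 difference was -0.32 from normal (SE 0.16, adjusted p = 0.20 in limma) and -0.32 from soft (SE 0.16, adjusted p = 0.26). Low readings in that sample recurred in Psmc3 and Psmd5, described with their roles.

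**Figure D2:**
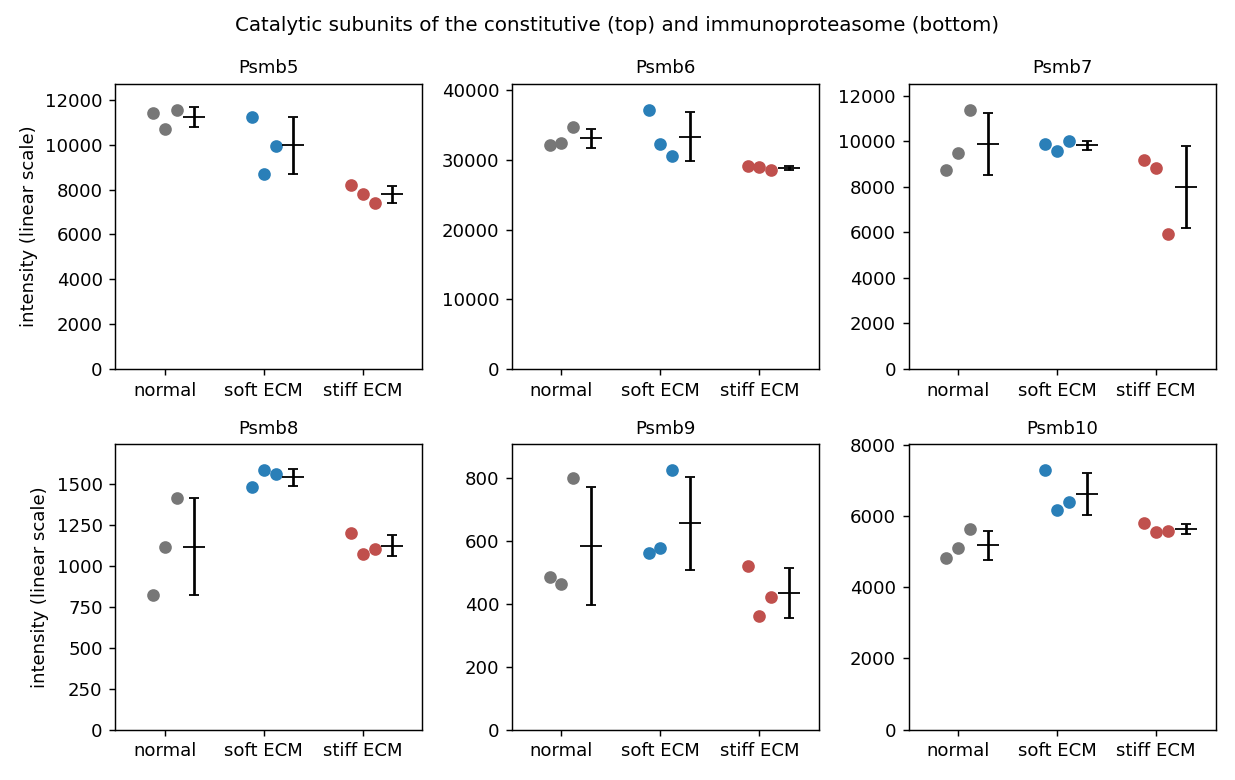
Intensity (linear scale, axes from 0) of the constitutive catalytic subunits Psmb5, Psmb6 and Psmb7 and the immunoproteasome subunits Psmb8, Psmb9 and Psmb10 in each of the 9 samples, with the mean and SD of each group of 3. All 3 stiff ECM samples lie below all 3 soft ECM samples in each of the 6 panels, while the soft ECM samples of Psmb8 and Psmb10 also lie above the normal ones.

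Psmb1, a structural subunit of the beta ring, read 21175, 20730.3 and 22222 in the normal, 18576, 17979.7 and 17662 in the soft and 15874, 15704 and 17032 in the stiff samples. The 3 groups did not overlap, in the order normal, soft, stiff. Its log2 change was -0.40 from normal to stiff (SE 0.08, adjusted p = 0.015 in limma), -0.24 from normal to soft (adjusted p = 0.11) and -0.16 between the gels (adjusted p = 0.26). The dimmer probe of Psmb1 had the same direction at a smaller size, with -0.16 from normal to stiff (SE 0.08, adjusted p = 0.22).

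Psmb3, another structural beta subunit, read 20027, 19693 and 20964 in the normal, 17548, 16628 and 16726 in the soft and 15032, 15914 and 15638 in the stiff samples. Its groups kept the same order without overlap. The log2 change from normal to stiff was -0.38 (SE 0.08, adjusted p = 0.016 in limma), and from normal to soft it was -0.25 (adjusted p = 0.094). Without stiff ECM replicate 2 the adjusted p of the fall on the stiff ECM was 0.071 for Psmb1 and 0.060 for Psmb3, and without stiff ECM replicate 3 it was 0.037 and 0.054. Both calls were also lost with cyclic loess, with no intensity trend and with the methods' t-test, and the adjusted p reached 0.083 and 0.069 over all alternatives.

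Psma4, an alpha ring subunit, read 17788, 15847 and 16762 in the normal, 16466, 15501 and 16997 in the soft and 14184, 12695 and 12255 in the stiff samples. The normal and soft samples overlapped and the stiff samples lay below both. Its log2 difference was -0.37 from normal (SE 0.09, adjusted p = 0.031 in limma) and -0.33 from soft (SE 0.09, adjusted p = 0.084).

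Psmc2, an ATPase of the base, read 29350.3, 27419 and 30167 in the normal, 30486, 23855 and 25329 in the soft and 22769, 21938 and 22669 in the stiff samples. All stiff samples were below the other 6, and soft replicate 1 was the highest of all. Its log2 change from normal to stiff was -0.37 (SE 0.10, adjusted p = 0.044 in limma), and the difference between the gels was -0.23 (adjusted p = 0.21). The calls of Psma4 and Psmc2 were the least stable of the 5, with adjusted p up to 0.15 and 0.14 over the 20 alternatives tried and the call lost in 10 and 12 of them. Leaving out any 1 of 4 samples (normal replicate 1 or 2, stiff replicate 2 or 3) ended the call of Psma4, with adjusted p of 0.059 to 0.12, and leaving out any 1 sample other than soft replicate 1 or 2 ended that of Psmc2, with adjusted p of 0.063 to 0.14.

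Nfe2l1, the transcription factor that raises proteasome genes when activity is short, is not a member and also fell from normal to stiff. Its intensity was 9754, 9951 and 10914 in the normal, 9159.6, 6475 and 6893 in the soft and 6325, 6222 and 6132 in the stiff samples. The stiff samples were the lowest and lay close together, and the normal samples were the highest. The soft samples of Psmb1 and Psmb3 were likewise below all normal samples, while those of Psmb5, Psma4 and Psmc2 overlapped them. The log2 change from normal to stiff was -0.71 (SE 0.12, adjusted p = 0.0095 in limma), and from normal to soft it was -0.46 (adjusted p = 0.068). Array RNA levels do not report its activity, which is set on the protein.

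**Figure D3:**
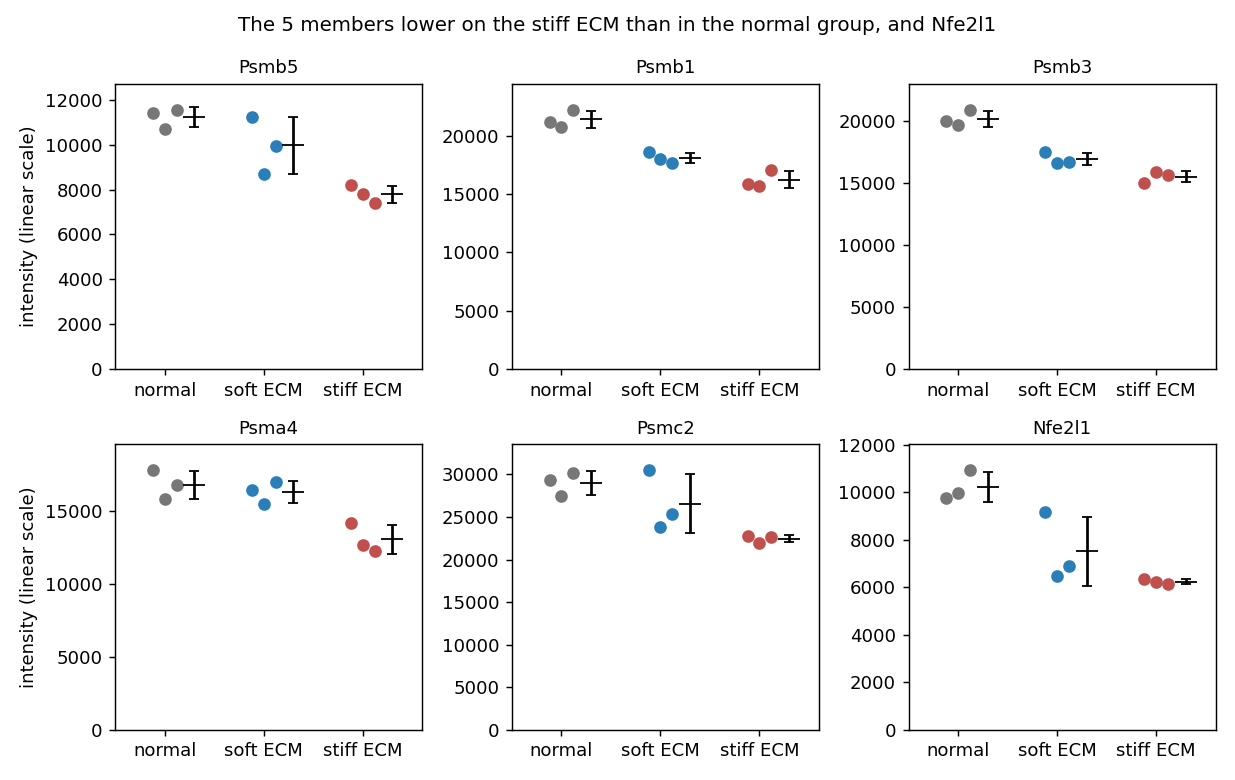
Intensity (linear scale, axes from 0) of Psmb5, Psmb1, Psmb3, Psma4, Psmc2 and the transcription factor gene Nfe2l1 in each of the 9 samples, with the mean and SD of each group of 3. In all 6 panels the 3 stiff ECM samples lie below the 3 normal samples, and Psmb1 and Psmb3 step down from normal to soft to stiff.

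The 250 bases before the start sites of the called genes are printed because these genes fell in the same comparison, from RefSeq on build GRCm38.p6, each 5′ to 3′ on the strand of the gene. Psmb1 had no entry. Windows were searched on both strands for TGACNNNGC, the core of the antioxidant response element that Nfe2l1 and its relatives bind, for CCAAT, the CCAAT box found before many subunit genes, and for a pair of interferon-linked motifs, TTCNNNGAA and the core of the interferon-stimulated response element (GAAA on both sides of 2 free bases). Capitals mark every match. The Psmb5 window, at chr14:54617996-54618245 on the minus strand, held TGACNNNGC at 47 to 39 bases before the start. The Psmb3 window, at chr11:97703184-97703433 on the plus strand, held CCAAT at 85 to 81 and 43 to 39 bases before the start and the interferon-stimulated core on the opposite strand at 163 to 154. The Psma4 window, at chr9:54950609-54950858 on the plus strand, held none of the 4. Psmc2 had 2 start sites on the plus strand, with windows at chr5:21785025-21785274, which held CCAAT at 28 to 24, and at chr5:21786497-21786746, which held none.
Psmb5: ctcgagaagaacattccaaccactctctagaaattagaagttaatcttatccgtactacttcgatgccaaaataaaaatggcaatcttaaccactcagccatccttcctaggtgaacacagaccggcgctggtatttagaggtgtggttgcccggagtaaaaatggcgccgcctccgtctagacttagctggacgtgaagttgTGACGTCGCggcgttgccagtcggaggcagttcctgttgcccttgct
Psmb3: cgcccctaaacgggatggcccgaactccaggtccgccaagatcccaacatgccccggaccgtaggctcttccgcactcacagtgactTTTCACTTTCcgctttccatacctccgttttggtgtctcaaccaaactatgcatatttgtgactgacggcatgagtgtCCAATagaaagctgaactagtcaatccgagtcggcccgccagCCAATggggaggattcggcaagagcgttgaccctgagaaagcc
Psma4: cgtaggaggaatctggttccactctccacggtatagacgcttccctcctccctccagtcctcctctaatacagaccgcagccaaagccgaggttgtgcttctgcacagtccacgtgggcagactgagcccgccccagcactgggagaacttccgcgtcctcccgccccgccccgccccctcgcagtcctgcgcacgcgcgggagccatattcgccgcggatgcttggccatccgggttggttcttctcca
Psmc2, first start: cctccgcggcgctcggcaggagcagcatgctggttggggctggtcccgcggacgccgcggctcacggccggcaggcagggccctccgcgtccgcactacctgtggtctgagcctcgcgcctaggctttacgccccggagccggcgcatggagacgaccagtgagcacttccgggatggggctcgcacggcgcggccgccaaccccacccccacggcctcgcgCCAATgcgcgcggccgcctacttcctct
Psmc2, second start: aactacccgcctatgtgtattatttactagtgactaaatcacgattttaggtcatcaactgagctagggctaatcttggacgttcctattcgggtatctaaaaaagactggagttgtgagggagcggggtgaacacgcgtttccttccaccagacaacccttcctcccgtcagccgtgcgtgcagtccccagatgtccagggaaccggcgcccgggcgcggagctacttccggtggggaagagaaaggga

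Over the members, 35 of the 42 had a window, and with further start sites there were 38 windows. TGACNNNGC was in 5 of 38 windows (13.2%, those of Psmb5, Psmb6, Psmc6, Psmd9 and Psmd12), beside 10.2% of all 32851 windows. CCAAT was in 13 (34.2%), beside 33.8% of all windows. The matches are descriptions of letters in these windows, and of the 4 called genes with a window only Psmb5 had the first motif. The interferon-stimulated core was in 3 windows (7.89%, those of Psmb3, Psmd4 and Psmd9), beside 2.98% of all windows.

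Of the 3 immunoproteasome subunits 0 passed the threshold in any comparison in limma or the methods' t-test. Between stiff and soft 3 were lower, and between soft and normal 2 were higher, at an unadjusted p under 0.05. The shares of all tested probes at that cut-off were 4.12% and 4.6%, and of those of like intensity 7.58% and 3.89%. Psmb8, which takes the place of Psmb5, read 824, 1117 and 1414 in the normal, 1482, 1584 and 1558 in the soft and 1199, 1070.2 and 1104 in the stiff samples. All soft samples were above the other 6, and the normal samples spread widely around the stiff ones. The log2 difference was -0.46 between stiff and soft (SE 0.16, adjusted p = 0.15 in limma), 0.50 between soft and normal (SE 0.16, adjusted p = 0.12) and 0.04 between stiff and normal. Against neighbours in intensity the first was -0.53 and the second 0.66. Leaving out normal replicate 1 brought the soft minus normal value to 0.29, and leaving out replicate 3 of that group brought it to 0.68.

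Psmb9, which takes the place of Psmb6, read 487, 464 and 799 in the normal, 563, 579 and 825 in the soft and 522, 363 and 421 in the stiff samples. The stiff and soft samples did not overlap, and normal replicate 3 and soft replicate 3 stood above the rest of their groups. The log2 difference was -0.58 between stiff and soft (SE 0.23, adjusted p = 0.18 in limma) and 0.19 between soft and normal (adjusted p = 0.69).

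Psmb10, which takes the place of Psmb7, read 4810.3, 5115 and 5622 in the normal, 7283, 6171 and 6398 in the soft and 5802, 5538 and 5574 in the stiff samples. The soft samples were above all others, and the stiff samples overlapped the normal ones. On the log2 scale the difference was 0.35 between soft and normal (SE 0.10, adjusted p = 0.072 in limma), or 0.47 against neighbours in intensity, and -0.23 between stiff and soft (adjusted p = 0.20). With quantile and with loess normalization, Psmb8 and Psmb10 passed the threshold as higher on the soft ECM than in the normal samples.

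The window before Psmb8, at chr17:34197945-34198194 on the plus strand of the same build, held TTCNNNGAA at 97 to 89 bases before the start, in capitals here. It was the only 1 of the 38 member windows (2.63%) with this motif, which was in 7.02% of all windows. The Psmb9 window, on the minus strand of the same chromosome at chr17:34187331-34187580, held CCAAT only. The Psmb8 sequence is shown because the immunoproteasome genes are known for interferon control.
Psmb8: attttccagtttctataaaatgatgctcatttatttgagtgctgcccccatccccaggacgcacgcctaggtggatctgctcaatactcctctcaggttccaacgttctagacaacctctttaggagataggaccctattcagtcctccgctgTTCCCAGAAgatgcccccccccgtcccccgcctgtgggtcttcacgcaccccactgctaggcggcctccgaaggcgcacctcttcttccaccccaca

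The rest of the alpha ring did not move as 1 block. Psma1 read 6154, 6296 and 6331 in the normal, 5488, 5799 and 5533 in the soft and 6874, 6989 and 6305 in the stiff samples. Its stiff samples were above all soft samples and overlapped the normal ones. The log2 difference between stiff and soft was 0.26 (SE 0.08, adjusted p = 0.11 in limma), the only member value higher there at an unadjusted p under 0.05. Psma7 had the opposite sign at -0.34 (SE 0.09, adjusted p = 0.082), with stiff samples at 11390.3, 12032 and 11549 and soft samples at 16473, 14374 and 13682. Psma2, the brightest probe of the ring, read 26410, 24468 and 30119 in the normal, 22145, 24929.9 and 27202 in the soft and 25839, 25060.1 and 23226 in the stiff samples. Its groups overlapped, with a difference of 0.00 between the gels (SE 0.11), and Psma6 differed by -0.07 there. Psma5 read 9.30, 7.38 and 13.7 in the normal, 10.0, 11.2 and 2.94 in the soft and 15.2, 12.9 and 9.63 in the stiff samples, below any useful level.

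Among the other structural beta subunits, Psmb4 read 16803, 14506 and 20804 in the normal, 15699, 15989.9 and 18871 in the soft and 14805, 13100.2 and 12486 in the stiff samples. Its stiff samples were below the soft samples, and the normal samples spanned more than both. Its log2 difference was -0.32 between stiff and soft (SE 0.13, adjusted p = 0.20 in limma) and -0.36 between stiff and normal (adjusted p = 0.11). Psmb2 differed by -0.13 and -0.10 in the same comparisons. All 4 structural beta subunits were below 0 in both, where 40.6% and 56.6% of the probes of like intensity were. Against neighbours in intensity, 4 were below 0 between stiff and soft. Between stiff and normal 3 were below and 1 above on that scale (Psmb2, at 0.03).

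The 6 base ATPases, which unfold the substrate and open the gate of the core, were all below 0 between stiff and soft, with log2 differences from -0.43 to -0.02 and a median of -0.22, and 5 of the 6 were below 0 against their neighbours in intensity. Psmc3 had the lowest value, with 15044, 14152 and 9192 on the stiff ECM against 18231, 16113 and 16157 on the soft ECM and 15817, 14538 and 19249 in the normal samples. The low stiff replicate 3 made the spread of this gene wide, and the difference of -0.43 had an SE of 0.17 (adjusted p = 0.19 in limma). Psmc5 departed from the others against the normal samples, with log2 differences of 0.25 for stiff (SE 0.15, adjusted p = 0.28) and 0.27 for soft samples (adjusted p = 0.35). Its values were 6956, 7641 and 9871 in the normal, 11451, 8960.3 and 9039 in the soft and 8409.7, 9752 and 10862 in the stiff samples, with all groups overlapping. Psmc1, Psmc4 and Psmc6 lay between -0.28 and -0.21 from normal to stiff, with 0 calls.

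Of the non-ATPase subunits of the base, Psmd4, a ubiquitin receptor, read 19058, 19616 and 18317 in the normal, 21003, 21083 and 21925 in the soft and 18639.8, 18496 and 17614 in the stiff samples. The soft samples were above the other 6. Its log2 difference was -0.23 between stiff and soft (SE 0.08, adjusted p = 0.13 in limma) and 0.17 between soft and normal (adjusted p = 0.25). Psmd1, a large scaffold and the brightest probe of this role, read 18793, 25399.5 and 26864 in the normal, 25319, 21446 and 23722 in the soft and 23075, 23308 and 22858 in the stiff samples, with normal replicate 1 the lowest and all groups overlapping. Psmd1 and the other scaffold Psmd2 differed by -0.02 and -0.15 between stiff and soft and by -0.02 and -0.04 between stiff and normal.

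The lid, which holds the deubiquitinase, had no common sign. Between stiff and soft 5 of its 8 members were above 0 and 3 below, with a median of 0.10, and against neighbours in intensity 4 were above and 4 below. The 5 included Psmd11, which was dim, and Psmd8, whose probes disagreed. Psmd13 was the lowest, with 20218, 20102 and 22802 in the normal, 25313, 23535 and 23568 in the soft and 20169, 19472 and 16379.9 in the stiff samples. Its soft samples were above all others. The difference of -0.38 between stiff and soft (SE 0.10) had the smallest p of all members in that comparison and missed the threshold (adjusted p = 0.076 in limma).

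Psmd14, the deubiquitinase of the lid, read 15002, 15117 and 16504 in the normal, 18552, 15529.9 and 14702 in the soft and 17279, 18119 and 17715 in the stiff samples. The stiff samples were above all normal samples, and it was the only 1 of the 42 genes with that pattern. Their log2 difference was 0.19 (SE 0.10, adjusted p = 0.22 in limma), or 0.33 against neighbours in intensity.

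The probes of Psmd8, another lid subunit, disagreed. The brighter probe, used throughout, read 8231, 7858 and 9588 in the normal, 6783, 6737 and 6759 in the soft and 7273, 6887 and 7059 in the stiff samples. The normal samples were above both gels, with log2 changes of -0.34 on the soft ECM (SE 0.09, adjusted p = 0.072 in limma) and -0.27 on the stiff ECM (adjusted p = 0.083). The dimmer probe read 2433, 2509.8 and 2394 in the normal, 2249, 1941 and 1739.7 in the soft and 3060.3, 3726 and 3606 in the stiff samples. On this probe the stiff samples were the highest, at 0.81 above soft (SE 0.12, adjusted p = 0.013) and 0.50 above normal (SE 0.12, adjusted p = 0.027), so no direction is given for Psmd8 between stiff and either group.

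The chaperones that build the base include Psmd5, Psmd9 and Psmd10, and 0 of the 3 passed the threshold of limma or the methods' t-test or an unadjusted p under 0.05 in any comparison. Psmd10, known also as gankyrin, read 6991, 7908 and 8342 in the normal, 9729, 7349 and 8151 in the soft and 7914, 7929 and 7699 in the stiff samples, with all groups overlapping. Its log2 change was 0.02 from normal to stiff and 0.11 from normal to soft. The dimmer probe of Psmd10 had the opposite sign, at -0.32 (SE 0.17, adjusted p = 0.25 in limma) and -0.18 (adjusted p = 0.60). Between the gels both probes were below 0, at -0.09 and -0.13. Psmd5 read 6405, 6616 and 3966 on the stiff ECM, replicate 3 being low as for Psmb7 and Psmc3. The SE between stiff and soft was 0.16 to 0.20 in these 3 genes.

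Of the 4 activators, which cap the core and open its gate, 0 passed the threshold in any comparison in limma or the methods' t-test, and 1 was lower from normal to stiff at an unadjusted p under 0.05. Psme1, an interferon-induced subunit of the ring-shaped 11S activator, read 3373, 3039 and 4245 in the normal, 2845, 3002 and 3380.4 in the soft and 3157, 2768 and 2619.8 in the stiff samples. The groups overlapped, and the log2 difference from normal to stiff was -0.31 (SE 0.13, adjusted p = 0.15 in limma), which was past the threshold with median centring. Its partner Psme2 was dim and read 62.0, 52.6 and 60.2 in the normal, 49.1, 46.8 and 49.0 in the soft and 48.4, 56.4 and 40.7 in the stiff samples. Its difference from normal to stiff was -0.27 (SE 0.20, adjusted p = 0.37). Psme3, the nuclear 11S activator, read 1161, 1301 and 1454 in the normal, 1337, 1204 and 1469 in the soft and 1574, 1625 and 1237 in the stiff samples. Psme4, a single-chain activator, read 3215, 2734 and 3579.9 in the normal, 2888, 3322 and 3333 in the soft and 3572, 2953 and 2744 in the stiff samples. The groups overlapped for both, and Psme4 differed by -0.05 to 0.01 in the 3 comparisons, with SEs of 0.13.

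The tissue-restricted forms were dim. Psma8, the alpha subunit of testis, read 197, 251 and 288 in the normal, 302, 225 and 256 in the soft and 236, 279 and 287 in the stiff samples, with overlapping groups. Psmb11, the catalytic subunit of thymus cortex, read 9.30, 7.38 and 42.2 in the normal, 12.03, 15.3 and 33.3 in the soft and 46.5, 13.8 and 41.7 in the stiff samples. Neither exceeded the olfactory gauge.

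Over the 3 groups at once, the order soft above normal above stiff in the group means of log2 intensity was the most frequent, in 13 of 42 members (31.0%), beside 5.92% of all tested probes and 8.75% of those of like intensity. The stiff group was lowest in 25 members (59.5%), beside 22.8% of all tested probes and 34.2% of those of like intensity. The soft group was highest in 18 (42.9%), beside 12.5% and 15.2%. These shares count means without regard to their error. After subtraction of the neighbours in intensity, the median deviation of the 42 in each sample was -0.02, -0.07 and -0.01 in the normal, 0.08, 0.06 and 0.10 in the soft and -0.04, -0.03 and -0.05 in the stiff samples. The 3 soft samples lay above the other 6 on this scale. Without the subtraction the same medians were -0.01, -0.05 and 0.19, then 0.11, -0.06 and 0.08, then -0.01, -0.08 and -0.15, and the groups overlapped.

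**Figure D4:**
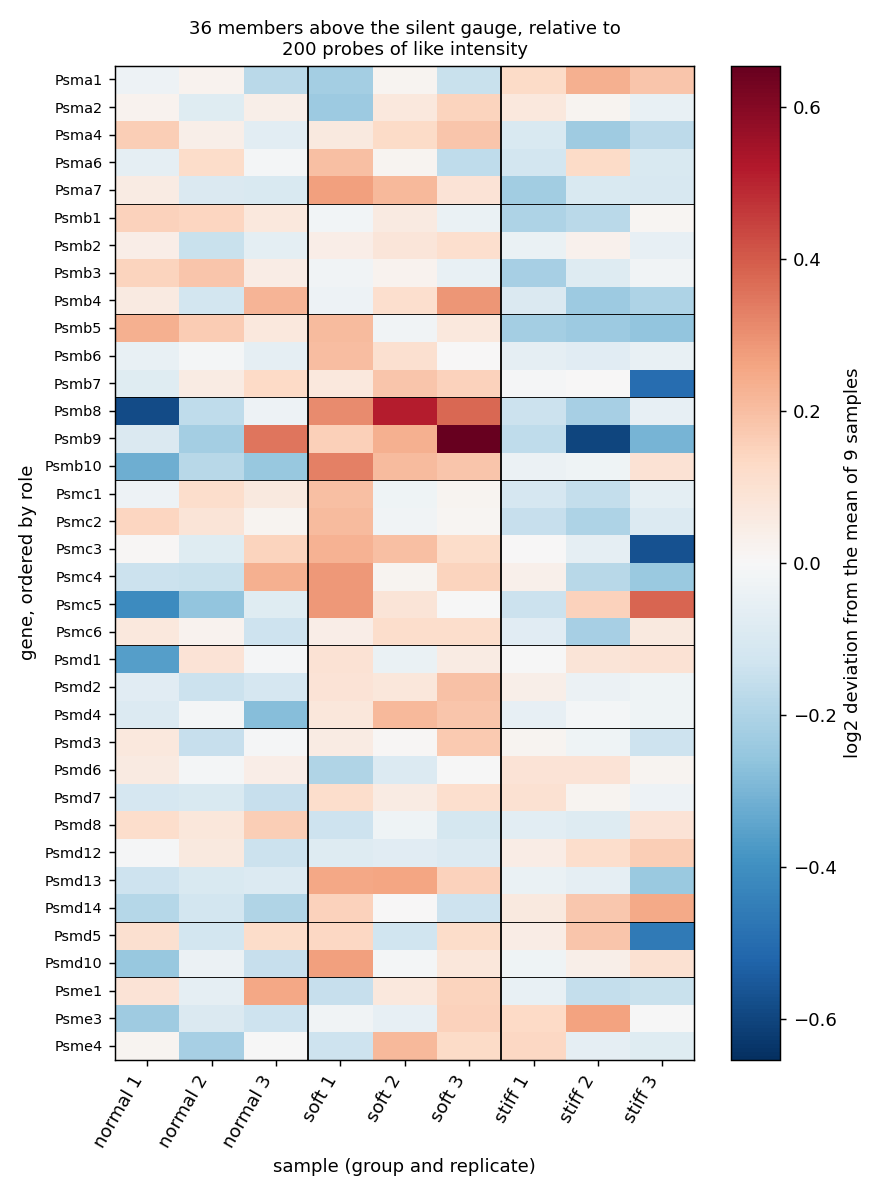
Heat map of log2 intensity of the 36 genes with a proteasome role above the olfactory gauge (rows, by role) in the 9 samples (columns). The dim members are not drawn. Colour gives the deviation from the mean of the gene after the same deviation of its 200 neighbours in intensity was subtracted. The immunoproteasome rows Psmb8 and Psmb10 are highest in the soft ECM columns, and Psmb5 is lowest in the 3 stiff ECM columns.

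Other genes of the pathway were read from lists by role. The 5 core assembly chaperones (Pomp and Psmg1 to Psmg4) had 0 calls in limma or the methods' t-test in any comparison, with 1 lower between the gels and 1 lower from normal to stiff at an unadjusted p under 0.05. All 5 were below 0 between stiff and soft, with a median of -0.17, beside 29.4% of all tested probes. Psmg4 read 4509, 3432 and 3119 in the soft and 2822, 2858 and 2750.3 in the stiff samples, without overlap (-0.37, SE 0.13, adjusted p = 0.15), and Psmg3 differed by -0.31 (adjusted p = 0.27). Of 8 proteasome-associated factors measured, 0 were called by either test, with 1 higher between the gels and 1 higher and 1 lower from normal to stiff at an unadjusted p under 0.05. Between stiff and soft 6 of these factors were above 0, beside 70.6% of all tested probes. Txnl1, a thioredoxin-like protein bound to the regulatory particle, had the smallest p of these at 0.46 (SE 0.11, adjusted p = 0.055), followed by the ubiquitin ligase Ube3c at 0.18 (adjusted p = 0.25). Txnl1 was also the 1 higher from normal to stiff, at 0.24 (adjusted p = 0.15). The lower 1 was Sem1, a small subunit of the lid outside the symbol rule, at -0.28 from normal to stiff (SE 0.10, adjusted p = 0.10), with 19264, 19684 and 19390.1 in the stiff samples, below the other 6.

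Of the 6 genes listed for ubiquitin and its activation, only Uba6, a ubiquitin-activating enzyme, was tested. It read 1238, 1304 and 1419 in the normal, 626, 1017 and 893 in the soft and 1376, 1703 and 1637 in the stiff samples. The soft samples were below all others, and Uba6 was higher on the stiff than on the soft ECM by 0.92 (SE 0.17, adjusted p = 0.028 in limma). Between the gels 1.35% of all tested probes were called higher. Of 9 shuttle and extraction factors measured, 1 was called, Ufd1, a partner of the segregase Vcp, which fell from normal to stiff by 0.53 on the log2 scale (SE 0.14, adjusted p = 0.039). In that comparison 5.14% of all tested probes were called lower.

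Of 6 genes measured for the control of proteasome transcription, Nfe2l1 fell on the stiff ECM and Syvn1, a ubiquitin ligase of the endoplasmic reticulum that acts on it, fell on the soft ECM. Against normal, 5.14% of all tested probes were called lower on the stiff and 3.21% on the soft ECM. Syvn1 read 4255, 4261 and 4434 in the normal, 3262, 3147 and 3227 in the soft and 4254, 4124 and 3738 in the stiff samples. Its soft samples were the lowest, with a log2 change of -0.43 from normal (SE 0.08, adjusted p = 0.024 in limma). Nfe2l2, the relative of Nfe2l1 that answers oxidants, differed by 0.02 between stiff and normal (adjusted p = 0.91).

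Beside the immunoproteasome, 13 of 16 interferon response genes were tested, and 1 was called, Irf7, which fell from normal to stiff by 0.49 (SE 0.13, adjusted p = 0.041 in limma). Over all tested probes 5.14% were called lower in that comparison. The list had a median of -0.23 between soft and normal and 10 of 13 members below 0 there, beside 61.7% of all tested probes, and 4 of the 13 were dim. Irf1, a factor known to induce Psmb9 and Tap1, read 1935, 1630.2 and 1761 in the normal, 1272, 1172 and 1323 in the soft and 1499, 2003 and 2279 in the stiff samples. Its soft samples were the lowest, with 0.60 between stiff and soft (SE 0.15, adjusted p = 0.063). Of 9 antigen-processing genes, Tap2, a subunit of the peptide transporter, fell on the stiff ECM by 0.39 (SE 0.11, adjusted p = 0.046), and the chaperone Calr fell by 0.64 on the stiff ECM (adjusted p = 0.014) and on the soft ECM by 0.52 (adjusted p = 0.045), all against normal. The shares of all tested probes called lower were 5.14% on the stiff and 3.21% on the soft ECM. Between stiff and soft 0 of the 9 were called in limma. At an unadjusted p under 0.05, Canx was higher there by 0.41 (adjusted p = 0.077). Tap1 was lower at that cut-off, at -0.38 (adjusted p = 0.19). Of 11 autophagy genes, the other route of protein breakdown, 0 were called in any comparison by limma or the methods' t-test, and at most 3 in a comparison had an unadjusted p under 0.05.

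Psmc3ip and Psme3ip1 encode no subunit, assembly chaperone or activator of the proteasome and were put in no role. Psmc3ip, a factor of meiotic recombination, read 584, 569.8 and 594 in the normal, 966, 777 and 814 in the soft and 726, 683 and 675 in the stiff samples. The groups did not overlap, and it rose on the soft ECM by 0.54 (SE 0.11, adjusted p = 0.027 in limma), the only call by the symbol rule in that comparison. Psme3ip1 differed by at most 0.14 (adjusted p = 0.53).

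Cell type markers moved with the same comparisons. Over all tested probes 5.14% were called lower and 4.8% higher from normal to stiff, and 3.21% lower from normal to soft. Between stiff and soft 0.417% were called lower and 1.35% higher. Of 13 chondrocyte markers, 5 were dim by the olfactory gauge, 4 fell on the stiff and 2 on the soft ECM against normal, 1 was called lower on the stiff than on the soft ECM (Prg4, the lubricin gene, at -1.01 with adjusted p = 0.017 in limma), and their summed intensity was 19980 to 22021 in normal, 10678 to 12885 in soft and 10079 to 11591 in stiff samples. Of 13 skeletal muscle markers 12 were above the olfactory gauge, 9 fell on the stiff and 2 on the soft ECM against normal, and 2 were called lower on the stiff than on the soft ECM, with sums of 166679 to 191330, 156511 to 169822 and 128139 to 138502. Such sums weigh the brightest probes most and do not describe each marker of a list. In the same order, the group means were 9673, 3612 and 3889 for Col2a1, the brightest chondrocyte marker. For Myl1, the brightest muscle marker, they were 65716, 65502 and 65649. Of 10 macrophage markers tested, Lyz1 and Itgam were called higher in stiff than in soft or normal samples and Fcer1g lower in stiff than in normal samples, with sums of 10397 to 12902, 9742 to 10674 and 11369 to 11947. Of 6 lymphocyte and 4 endothelial markers, 0 were called in limma, 1 of each list was higher between the gels at an unadjusted p under 0.05, and the methods' t-test called 1 endothelial marker there. The 4 endothelial, 4 of the 6 lymphocyte and 5 of the 10 macrophage markers were dim by the olfactory gauge, and the part of these cells in the values of the proteasome genes was not tested. In such bulk samples fewer cells of a type and less RNA per cell cannot be told apart.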

How the data were processed

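RNA of 9 samples was measured on Phalanx Mouse OneArray v2 arrays. By the study's methods, the authors labelled amplified RNA with Cy5, hybridised each sample in duplicate, removed flagged spots and control probes, scaled by the median in Rosetta Resolver and averaged the duplicates, and the sources used here name no software version. The deposited intensity values run from -8.27 to 70058 over 26423 probes, so a background had been subtracted. Of these, 21876 had 1 gene symbol, 4547 had none, 0 had several, and 21825 matched RefSeq by gene ID. Probes at or below 0 in any sample (1481, 5.6%) were left out.

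Log2 of the deposited intensities was fitted with no further normalization by lmFit and eBayes of limma 3.58.1, with the trend option, under R 4.3.3, over 3 group means and all 9 samples. The number of arrays limits the precision, and the fit was tested on simulated data with known changes. The simulation held no intensity shift between the groups, so it cannot speak to the effect of that shift on the calls. Rosetta Resolver's own error model could not be run from these values. Members and lists were chosen with earlier results of these data known. By rule, values in every sample are given for catalytic subunits, activators, Psma8, called members, the 3 members highest and lowest against their neighbours in each comparison and the brightest of each role, and further members named were chosen after their values were seen. The alternatives were quantile normalization, median centring, cyclic loess, the upper 50% of probes, an offset of 36.05 (the 25th percentile), sample weights, 2 groups only, a fit without the trend, the replicate number as a block, the methods' t-test, the mean of the probes of a gene, and each sample left out. Plots used matplotlib 3.10.9 under Python 3.11.15.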

Additional observations from a re-analysis of the deposited data

How the results depend on the processing

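The values depend on how the arrays are scaled. The median log2 difference of all tested probes between stiff and soft, 0.18 as deposited, was 0.01 after loess, -0.00030 after quantile normalization and -0.06 after median centring. The median of the 42 proteasome genes moved to -0.37 with median centring between stiff and soft, to -0.30 with median centring, -0.026 with quantile normalization and -0.020 with loess between stiff and normal, and to 0.13 with quantile normalization and 0.12 with loess between soft and normal. Its sign held in the first 2 comparisons, and over the samples left out in turn it ran from -0.17 to -0.09, from -0.19 to -0.06 and from -0.06 to 0.10.

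The count of members lower on the stiff ECM than in the normal samples, 5, was 11 with median centring, 8 with sample weights, 3 with quantile normalization, 1 with loess, 1 with no intensity trend and 0 with the methods' t-test, and 0 to 5 with 1 sample left out. Members higher there, 0, were 2 with quantile normalization, 2 with loess, 3 with sample weights and 0 to 1 with 1 sample left out. Members lower on the stiff than on the soft ECM, 0, were 10 with median centring, 9 with sample weights, 4 with quantile normalization, 2 with loess, 1 with 2 groups only, 1 with the upper 50% of probes and 0 to 1 with 1 sample left out. Members higher there were 1 with sample weights (Psma1) and 1 with the mean of the probes of a gene (Psmd8). Members higher on the soft ECM than in the normal samples, 0, were 4 with loess, 3 with quantile normalization, 2 with sample weights, 1 with median centring and 0 to 1 with 1 sample left out, and members lower were 4 with sample weights and 1 with the upper 50% of probes. The cause of these shifts was not tested. The sample weights ran from 0.26 to 3.95 within the normal group and were estimated gene by gene because the default method did not converge, so counts with them are less certain.

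The sample labels do not say whether the replicate numbers pair the samples. Same-numbered samples had correlations of -0.22 to 0.13 between their deviations from the group means, and differently numbered samples of -0.23 to 0.19. With the replicate number as a block, 3 members in place of 5 were lower on the stiff ECM than in the normal samples. Of 1551 values of the 26 named members over the alternatives, 1384 kept their direction and their side of the threshold, 34 lost and 48 gained the call, and 85, past the threshold in neither fit, changed sign. Of these 85, 79 had a log2 difference of at most 0.14 in size as deposited, 5 were of the dim Psma5 and Psmb11, and 1 was Psmd8 from normal to stiff, at 0.11 with the mean of its probes. Dim members have no usable order.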
